A study of Homo sapiens with 8 samples.

Results

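Cells display peptides from their own proteins on MHC class I molecules, where cytotoxic T cells read them, and the histone marks over 9 genes of this pathway were examined here in HL-60 cells with and without all-trans retinoic acid (ATRA). The genes were chosen by name from the 20098 protein-coding genes of the annotation: the heavy chain genes HLA-B, HLA-C and HLA-E, the light chain gene B2M, the peptide transporter genes TAP1 and TAP2, the immunoproteasome genes PSMB8 and PSMB9, and NLRC5, which encodes the transactivator of class I genes. HL-60 is 1 established human cell line that came from the blood of a patient with myeloid leukemia, and ATRA drives it toward granulocytes. The treated cells received 1 µM ATRA for 4 days, the control cells received the same volume of its solvent ethanol, and in both groups fresh medium with the agent was given once during that time. H3K4me3, a mark of active promoters, and H3K27ac, a mark of active promoters and enhancers, were each measured by ChIP-seq in 2 libraries per condition, 8 libraries in all. The peaks of each library were called separately on hg19.

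In this pathway, the proteasome cuts proteins into peptides, and the immunoproteasome subunits encoded by PSMB8 and PSMB9 take the places of the standard catalytic subunits. TAP1 and TAP2 form the transporter that carries peptides into the endoplasmic reticulum, where they are loaded onto a heavy chain paired with β2-microglobulin. Most of these genes are known to respond to interferon. The promoters of B2M and of heavy chain genes such as HLA-B are known to be bound by RFX factors, which recruit NLRC5, and by IRF and NF-κB factors.

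The 7 members on chromosome 6 lie on the primary chromosome of hg19. The only peaks outside the autosomes and chromosome X lay on 1 sequence in control replicate 2 of H3K27ac, and its name is not reported here. On hg19, HLA-E starts at chr6:30457286 (+), HLA-C at chr6:31239869 (−), HLA-B at chr6:31324956 (−), TAP2 at chr6:32806516 (−), PSMB8 at chr6:32811824 (−), TAP1 at chr6:32821481 (−) and PSMB9 at chr6:32821969 (+). B2M starts at chr15:45003715 (+) and NLRC5 at chr16:57023469 (+). These are the starts of the MANE Select transcripts, the reference transcripts of the annotation. TAP1 and PSMB9 start 488 bp apart on opposite strands, so a peak over one start usually reaches the other. With 5 kb added on each side, the 9 genes formed 6 separate regions of 220824 bp in total, since the regions of TAP1, TAP2, PSMB8 and PSMB9 ran together. The regions also held the starts of neighboring genes, among them PATL2 beside B2M, HLA-DOB beside TAP2 and the antisense gene PSMB8-AS1, and a peak does not tell which of these genes it belongs to.

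The sequences upstream of 6 of the start sites are shown because the peaks described here lay over them. Those of TAP2 and PSMB8 were searched in the same way and are not shown. A motif for RFX factors was not among those searched. Each is the 250 bases before the start on GRCh37 (hg19), read 5′ to 3′ on the strand of the gene, and capitals mark matches to the motifs searched on both strands. The motifs were the CCAAT box (CCAAT), the GC box (GGGCGG), the TATA box (TATAAA), the core of the interferon-stimulated response element (GAAA, any 2 bases, GAAA), the gamma-activated site (TTC, any 3 bases, GAA), the NF-κB site and the DR5 repeat bound by retinoic acid receptors. HLA-B lies at chr6:31324957-31325206 (−), HLA-C at chr6:31239870-31240119 (−), HLA-E at chr6:30457036-30457285 (+), B2M at chr15:45003465-45003714 (+), TAP1 at chr6:32821482-32821731 (−) and PSMB9 at chr6:32821719-32821968 (+).
HLA-B: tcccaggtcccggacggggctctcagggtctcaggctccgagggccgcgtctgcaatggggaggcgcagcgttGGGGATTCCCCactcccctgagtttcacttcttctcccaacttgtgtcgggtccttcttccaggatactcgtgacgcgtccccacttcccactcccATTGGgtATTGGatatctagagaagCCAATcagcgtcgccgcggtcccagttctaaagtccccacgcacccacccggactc
HLA-C: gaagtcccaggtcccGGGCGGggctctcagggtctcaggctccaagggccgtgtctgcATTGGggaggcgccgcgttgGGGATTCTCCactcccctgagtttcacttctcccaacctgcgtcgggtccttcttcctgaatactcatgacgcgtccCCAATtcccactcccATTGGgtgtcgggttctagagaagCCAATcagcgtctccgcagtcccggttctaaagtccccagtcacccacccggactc
HLA-E: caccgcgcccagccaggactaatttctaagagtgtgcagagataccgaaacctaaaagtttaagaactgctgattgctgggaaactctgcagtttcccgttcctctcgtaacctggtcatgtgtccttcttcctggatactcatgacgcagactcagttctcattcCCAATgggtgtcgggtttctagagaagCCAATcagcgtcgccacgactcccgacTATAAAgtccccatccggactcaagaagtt
B2M: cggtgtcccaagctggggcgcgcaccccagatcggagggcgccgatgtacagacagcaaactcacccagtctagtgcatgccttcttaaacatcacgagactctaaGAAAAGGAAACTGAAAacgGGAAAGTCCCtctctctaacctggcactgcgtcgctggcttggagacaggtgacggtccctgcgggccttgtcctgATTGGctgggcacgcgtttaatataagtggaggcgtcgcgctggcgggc
TAP1: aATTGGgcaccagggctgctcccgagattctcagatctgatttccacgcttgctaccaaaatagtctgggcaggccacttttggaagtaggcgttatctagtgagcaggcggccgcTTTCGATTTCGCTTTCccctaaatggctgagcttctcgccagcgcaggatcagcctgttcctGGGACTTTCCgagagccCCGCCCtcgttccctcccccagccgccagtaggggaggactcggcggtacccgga
PSMB9: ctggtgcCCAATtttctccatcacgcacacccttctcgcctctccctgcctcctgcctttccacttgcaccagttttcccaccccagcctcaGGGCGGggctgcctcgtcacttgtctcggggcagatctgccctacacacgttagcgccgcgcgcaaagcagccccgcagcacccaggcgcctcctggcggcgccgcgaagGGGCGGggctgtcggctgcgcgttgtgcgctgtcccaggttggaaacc

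The heavy chain promoters of HLA-B and HLA-C were alike in 89.0% of the columns of their alignment, and HLA-E was alike in 65.5% with HLA-B and in 66.9% with HLA-C. All 3 carried a CCAAT box between 57 and 52 bases before the start. An NF-κB match stood upstream in HLA-B, HLA-C, B2M and TAP1, 4 of the 8 members searched (NLRC5 was not), and in 5.87% of 20094 protein-coding promoters of the same length. The response element core was found in B2M, TAP1 and TAP2, 3 of 8 against 2.87% of all promoters, and in B2M and TAP1 it occurred as an overlapping pair. A CCAAT box was found in 6 of 8 (34.2% of all promoters), where TAP1 and PSMB9 share 1 match because their windows overlap. A GC box was found in 4 (58.7%), a TATA box in 2 (9.40%) and a gamma-activated site in PSMB8 alone (5.67%). The DR5 repeat was found in 0 of 8, and in 0.0348% of all promoters. A match is a string of letters in this window and says nothing about binding.

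Peaks covered 47.7 to 63.2 Mb per H3K4me3 library (13241 to 16487 peaks) and 28.8 to 86.1 Mb per H3K27ac library (15457 to 39332 peaks). The H3K27ac total was larger in the ATRA libraries, with 64.8 and 86.1 Mb, than in the control libraries, with 28.8 and 54.0 Mb. Read counts of the peaks are unknown, so the comparisons are of lengths under peaks and not of signal. The labels could be checked on genes known to change in this differentiation. The starts of ITGAM and CD38 lay under peaks of both marks in 2 of 2 ATRA and 0 of 2 control libraries, and the start of GATA2, a progenitor factor, in 0 of 2 ATRA and 2 of 2 control libraries. The T cell marker CD3E had no H3K4me3 peak in any library, and H3K27ac lay over its start in 1 ATRA library and no control library. CSF3R and MYB had their starts under both marks in all libraries, and FPR1 in 0.

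The start sites of all 9 members lay under an H3K4me3 peak in all 4 libraries, before and after ATRA. Such coverage in all 4 was found for 92.9% of the 10906 protein-coding genes with their start under an H3K4me3 peak in any library, so the members had the state of most marked promoters. None of the 9 starts was covered in the ATRA libraries alone (0.477% of those genes) or in the control libraries alone (0.238%). H3K27ac covered 8 and 8 of the 9 starts in the ATRA libraries and 7 and 8 in the control libraries. The starts of HLA-C, HLA-E, B2M, TAP1, PSMB8 and NLRC5, 6 of 9, were covered by H3K27ac in all 4 libraries, against 44.8% of 8734 genes with a start under H3K27ac in any library. Those of HLA-B, TAP2 and PSMB9 were missed in 1 or 2 libraries each. None of the 9 was covered by H3K27ac in both ATRA libraries and no control library (6.97% of genes) or the reverse (0.996%).

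**Figure D1:**
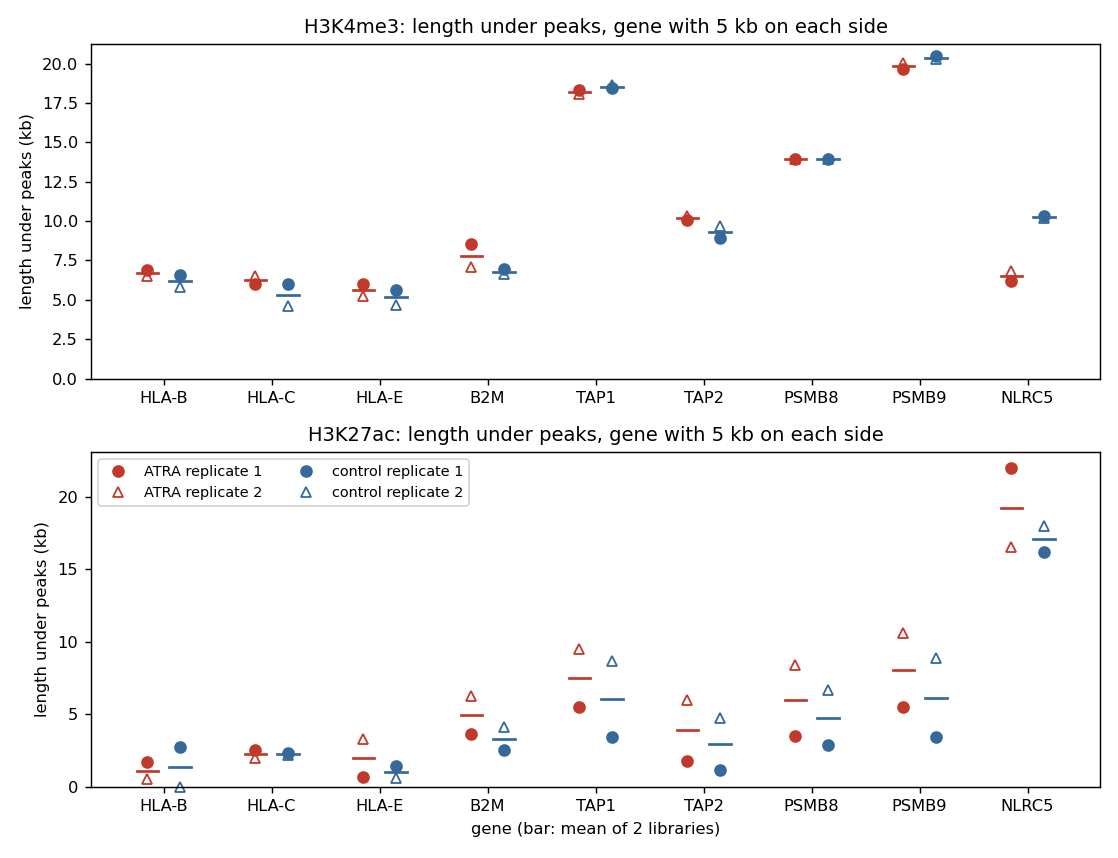
Length under H3K4me3 peaks (top) and H3K27ac peaks (bottom) in kb, over each gene with 5 kb on each side, in the 8 libraries. Filled circles are replicate 1, open triangles replicate 2, and bars the mean of 2 libraries. NLRC5 is the member with the widest gap between the conditions for H3K4me3, and for H3K27ac the ATRA and control libraries of all 9 members overlap.

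Per length of region, the members fell into 3 levels of H3K4me3 in all 4 libraries. The PSMB8 region was 100% under peaks, the TAP1 region 96.9% to 100% and the PSMB9 region 76.5% to 79.5%. B2M followed with 37.8% to 48.9%, HLA-C with 34.5% to 48.8%, TAP2 with 33.1% to 38.4%, HLA-E with 31.8% to 41.1% and HLA-B with 24.96% to 29.7%, and the ranges of neighbors in this order overlapped except for HLA-E and HLA-B. The gene records of HLA-B and PSMB9 begin 9888 and 10056 bp before the starts used here, so their regions and shares depend on the annotation. In bp under H3K4me3 peaks, HLA-B was above HLA-E in every library, so the order of this pair by share follows from the longer HLA-B region. NLRC5, the longest of these genes, had 5.95% to 9.93%. H3K27ac shares were lower than those of H3K4me3 in every member but NLRC5, which had 15.6% to 21.1%. They ran from 20.4% to 60.3% for PSMB8, the widest range, and from 0% to 11.8% for HLA-B, the lowest.

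The heavy chain genes encode the chains that hold the peptide, HLA-B and HLA-C as classical and HLA-E as a non-classical molecule. In what follows, the value of replicate 1 stands before that of replicate 2, and the log2 change is that of the mean length after adding 1000 bp. HLA-B had 6883 and 6538 bp under H3K4me3 peaks in the ATRA libraries and 6569 and 5789 bp in the control libraries, a log2 change of 0.10 between groups that overlapped. HLA-C had 6023 and 6525 bp with ATRA and 5989 and 4612 bp in control (log2 change of 0.21), where both ATRA libraries were above both control libraries, by 34 bp at the nearest pair. The HLA-C change rested on the control libraries, at 0.37 without control replicate 1 and 0.06 without control replicate 2. HLA-E had 6031 and 5221 bp with ATRA and 5647 and 4674 bp in control, a log2 change of 0.11 with overlap. In each of the 3 genes, the lower control value was that of replicate 2, the H3K4me3 library with the fewest peaks.

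H3K27ac over the heavy chain genes varied between libraries of the same condition. HLA-C was the most regular, with 2557 and 1950 bp in the ATRA libraries and 2304 and 2158 bp in the control libraries (log2 change of 0.01), in 1 peak over the start in each of the 4. HLA-B had 1703 and 531 bp with ATRA and 2733 and 0 bp in control (log2 change of −0.16), and only the replicate 1 libraries had a peak over its start. The 531 bp of ATRA replicate 2 lay inside the gene, at chr6:31323138-31323668. HLA-E had 681 and 3274 bp with ATRA and 1462 and 609 bp in control (log2 change of 0.55), and its highest value held a separate peak downstream of the gene, at chr6:30464891-30466329, that no other library had. In all 3 genes the 2 ATRA libraries differed from each other by more than the means of the conditions did.

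Near-identical copies bear on these genes, because reads from like sequences may not have 1 place in the genome. Of the 3970 stretches of 32 bases within 2 kb of the start, 13.7% for HLA-B, 17.4% for HLA-C and 17.9% for HLA-E occurred elsewhere in the primary assembly, compared with 1.61% for B2M, 0.806% for TAP1, 5.29% for TAP2, 3.0% for NLRC5 and 0% for PSMB8 and PSMB9. The part that unplaced reads had in the peaks of the HLA genes was not tested.

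B2M encodes β2-microglobulin, the light chain that every class I molecule needs. Its H3K4me3 peak, 1 in each library, measured 8563 and 7054 bp with ATRA and 6953 and 6619 bp in control, a log2 change of 0.18 with both ATRA libraries above both control libraries. The upstream edge lay between chr15:45001873 and chr15:45002179 in the 4 libraries, and the widest peak, in ATRA replicate 1, ran furthest into the gene, to chr15:45010435. The log2 change was 0.05 without ATRA replicate 1 and 0.30 without ATRA replicate 2. H3K27ac over B2M came to 3628 and 6268 bp with ATRA and 2521 and 4100 bp in control (log2 change of 0.46), and the lower ATRA value fell between the control values. The peak over the start itself measured 2916 and 3977 bp with ATRA and 2521 and 3828 bp in control, and within 2 kb of the start the log2 change was −0.04. The rest of the ATRA length lay mainly more than 10 kb downstream of the start, where a peak of each library reached over the start of the neighbor TRIM69 at chr15:45021186. In the 12 kb after the end of B2M, H3K27ac covered 6854 and 8501 bp in the ATRA libraries and 4756 and 6441 bp in the control libraries, a stretch looked at after its values were seen.

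**Figure D2:**
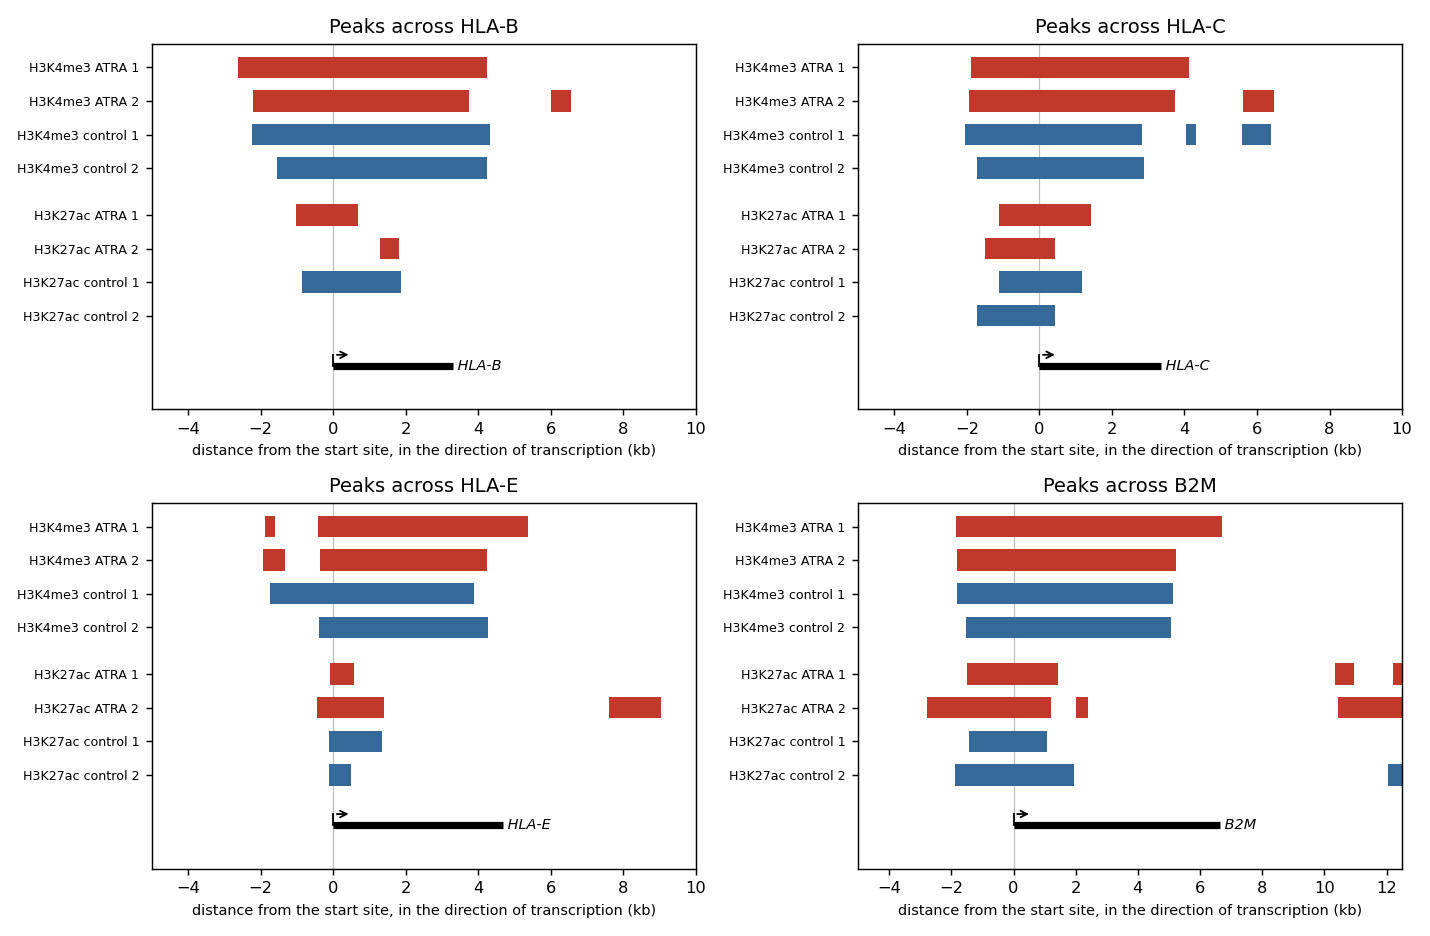
Peaks across the heavy chain genes HLA-B, HLA-C and HLA-E and the light chain gene B2M, by distance from the start site in kb in the direction of transcription, with 1 line per library (ATRA in red, control in blue), the reference transcript as a black bar and an arrow at its start. H3K4me3 covers all 4 starts in every library, and the H3K27ac peak over the HLA-B start is present in the replicate 1 libraries and absent from the replicate 2 libraries.

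The transporter and immunoproteasome genes lie side by side, and 1 H3K4me3 peak ran across all 4 of their starts in every library. This peak measured 24837 and 24839 bp in the ATRA libraries and 23793 and 25369 bp in the control libraries, so the control values enclosed the ATRA values. By length it ranked 5 and 6 among all peaks of the ATRA libraries and 12 and 3 among those of the control libraries. PSMB8, an immunoproteasome subunit with the same position as PSMB5 in the standard enzyme, lay wholly under it, and its region was covered over 13963 bp, 100% of its length, in all 4 libraries. A change of H3K4me3 length could therefore not have been seen at PSMB8.

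TAP1 had 18307 and 18036 bp under H3K4me3 peaks with ATRA and 18416 and 18608 bp in control, and both ATRA libraries were below both control libraries by a log2 change of −0.03. Its partner on the other strand, PSMB9, which takes the position of PSMB6, had 19680 and 20055 bp with ATRA and 20447 and 20304 bp in control, with the same order of the groups and a log2 change of −0.03. These are changes of the right edge of the shared peak and of a small peak beyond it, and they are not independent. Without ATRA replicate 2 the TAP1 change was −0.02, and without ATRA replicate 1 the PSMB9 change was −0.02. TAP2, at the other end of the shared peak, had 10061 and 10334 bp with ATRA and 8908 and 9669 bp in control, higher in both ATRA libraries with a log2 change of 0.12 (0.07 without control replicate 1). The shared peak thus began further left in the ATRA libraries, at chr6:32801456 and chr6:32801183, than in the control libraries, at chr6:32802609 and chr6:32801848.

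H3K27ac fell into separate peaks over the same stretch. All 4 libraries had one over the PSMB8 start and one at the TAP1 start, and control replicate 1 had none around the TAP2 start. Around the divergent TAP1 and PSMB9 starts, the peak measured 2415 and 4176 bp with ATRA and 606 and 4139 bp in control. The 606 bp peak of control replicate 1 covered the TAP1 start and stopped short of the PSMB9 start, whereas the other 3 libraries covered both. Over the TAP1 region, H3K27ac came to 5467 and 9517 bp with ATRA and 3454 and 8688 bp in control (log2 change of 0.26), and over the PSMB9 region to 5467 and 10566 bp with ATRA and 3454 and 8847 bp in control (log2 change of 0.33).

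PSMB8 had an H3K27ac peak over its start in every library, of 3052 and 5141 bp with ATRA and 2848 and 4065 bp in control. Its whole region held 3506 and 8424 bp with ATRA and 2848 and 6655 bp in control, a log2 change of 0.28. TAP2 had 1788 and 5999 bp with ATRA and 1140 and 4754 bp in control (log2 change of 0.31), with its start covered only in the replicate 2 libraries. The TAP2 region reaches into the PSMB8 peak, which made up the whole 1140 bp of control replicate 1. In all 4 genes the replicate 2 libraries of both conditions had more H3K27ac length than the replicate 1 libraries of both conditions, so the groups overlapped, and within each replicate number the ATRA library was the higher.

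**Figure D3:**
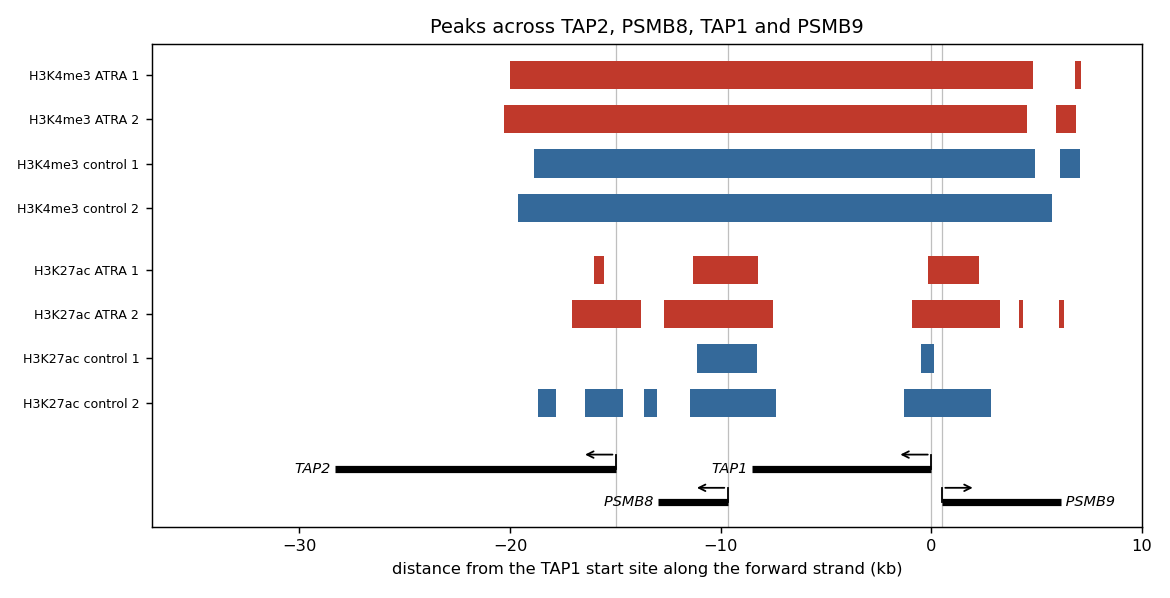
Peaks across TAP2, PSMB8, TAP1 and PSMB9, by distance in kb from the TAP1 start along the forward strand, with 1 line per library (ATRA in red, control in blue) and the reference transcripts as black bars with an arrow at each start. A single H3K4me3 peak of 23793 to 25369 bp spans the 4 starts in each library, and H3K27ac falls into separate peaks around the starts.

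NLRC5, the transactivator, was the member with the largest difference in H3K4me3. It had 6190 and 6817 bp under H3K4me3 peaks in the ATRA libraries and 10332 and 10172 bp in the control libraries, a log2 change of −0.58 with wide separation of the groups. Among the 13256 protein-coding genes with an H3K4me3 peak in any library, 0.875% had a lower log2 change. The decrease did not lie at the promoter. The peak over the start measured 5663 and 6817 bp with ATRA and 5040 and 5057 bp in control, and within 2 kb of the start the log2 change was −0.02.

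The length absent from the ATRA libraries lay inside the gene. Both control libraries had an H3K4me3 peak far from the start, at chr16:57072053-57077344 in replicate 1, which measured 5292 bp, and at chr16:57073513-57077094 in replicate 2, which measured 3582 bp. Control replicate 2 also had a peak of 1533 bp close behind the promoter peak, at chr16:57027123-57028655, which adds to its length. Neither ATRA library had any bp under an H3K4me3 peak over chr16:57072053-57077344. The replicate 1 peak lay between 48584 and 53875 bp downstream of the start, held exons 16 to 19 of the reference transcript and contained 4 of the 28 annotated transcript starts of NLRC5. This stretch was singled out after its values were seen and is given without a test. Of the 12035 H3K4me3 peaks of control replicate 1 that overlapped a peak of control replicate 2, 164, or 1.36%, had 0 bp under a peak in either ATRA library. By its length of 5292 bp in replicate 1, the NLRC5 peak was number 4 of these, against a median length of 1036 bp. Lengths in replicate 2, where it measured 3582 bp, were not ranked.

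H3K27ac was kept over the inner stretch of NLRC5, with 4314 and 5292 bp of its 5292 bp covered with ATRA and 5292 bp in both control libraries. The surrounding H3K27ac peak was nevertheless longer in control, with chr16:57069613-57078761 (9149 bp) and chr16:57069630-57079527 (9898 bp). In ATRA replicate 1 it was broken into chr16:57070579-57072610 and chr16:57073589-57078431, and in ATRA replicate 2 it ran over chr16:57070820-57077546 (6727 bp). At the NLRC5 start, H3K27ac went the other way. The peak there measured 6563 and 3147 bp with ATRA and 2439 and 2657 bp in control, and NLRC5 was the 1 member of 9 with more H3K27ac within 2 kb of its start in both ATRA than in both control libraries, a pattern found in 33% of 11007 genes. Over the whole NLRC5 region, H3K27ac came to 21965 and 16511 bp with ATRA and 16195 and 17983 bp in control (log2 change of 0.16), and the groups overlapped.

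**Figure D4:**
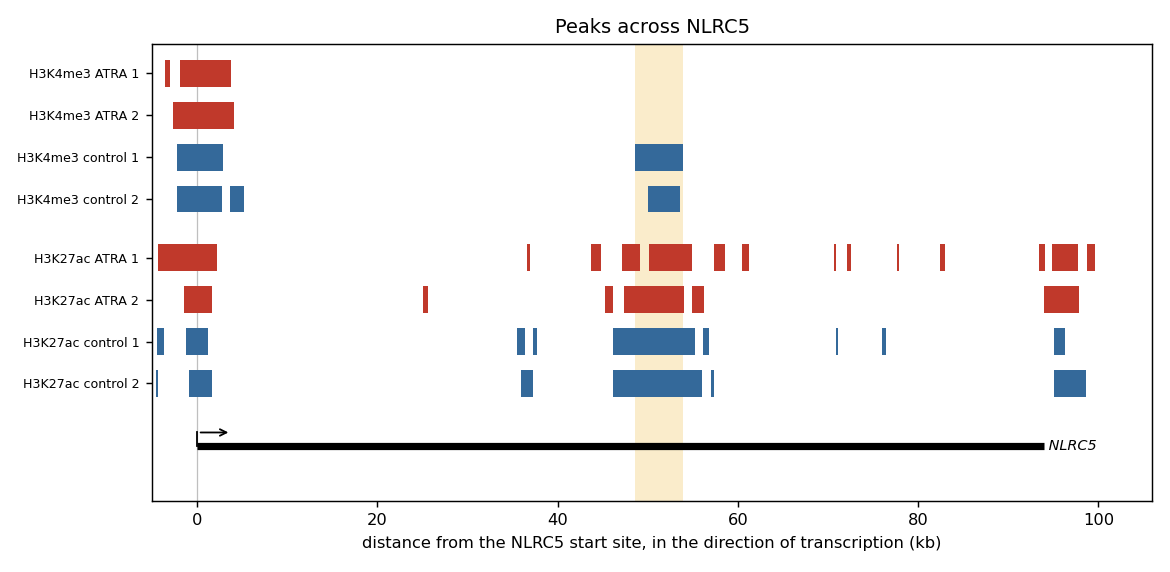
Peaks across NLRC5, by distance in kb from its start in the direction of transcription, with 1 line per library (ATRA in red, control in blue) and the reference transcript as a black bar. The shaded stretch, 48584 to 53875 bp from the start, is the H3K4me3 peak of control replicate 1. The peak of control replicate 2 covers 67.7% of it, no ATRA library has one, and H3K27ac covers it in all 4 libraries except for a gap in ATRA replicate 1.

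Across the 9 members, H3K4me3 length was higher in both ATRA libraries than in both control libraries for 3 (HLA-C, B2M and TAP2), lower for 3 (TAP1, PSMB9 and NLRC5) and overlapping for 3. Of the 13256 genes with an H3K4me3 peak, 40.3% were higher and 4.1% lower by this rule. Among the 3 lower members, TAP1 and PSMB9 share 1 peak and are not independent. Their groups were 109 and 249 bp apart at the nearest pair, and peaks covered 96.9% to 100% of the TAP1 region. The median log2 change was 0.10 for the members and 0.15 for all those genes, and after division by the total length under peaks of each library both were below 0, at −0.10 and −0.04. Over the 6 regions together, H3K4me3 covered 58827 and 57940 bp with ATRA and 60241 and 57235 bp in control, a log2 change of −0.01 with an SD of 0.04 between libraries of a condition, and the groups overlapped (exact two-sided permutation test, p = 1, n = 2 against 2).

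H3K27ac length was higher in both ATRA libraries for 0 of the 9 members and lower for 0, and all 9 overlapped, whereas 40.4% of 13999 genes with an H3K27ac peak were higher and 4.06% were lower. The libraries of replicate 1 and replicate 2 also differed from each other. When ATRA was compared with control within each number, 5 of the 9 members (B2M, TAP1, TAP2, PSMB8 and PSMB9) were higher within both numbers, against 58.2% of all genes. None was lower within both, against 1141 of 13999 genes. For H3K4me3, 5 of 9 (HLA-B, HLA-C, HLA-E, B2M and TAP2) were higher within both, against 53.5%. In the other direction, 3 (TAP1, PSMB9 and NLRC5) were lower within both, against 966 of 13256 genes. Of these 5 H3K27ac members, 4 share peaks at 1 locus and are not independent. The median H3K27ac log2 change was 0.28 for the members and 0.42 for all genes, and it turned to −0.46 and −0.14 after division by the total length under peaks of each library. Over the 6 regions together, H3K27ac covered 36455 and 41590 bp with ATRA and 28669 and 36335 bp in control. This is a log2 change of 0.26 with an SD of 0.19 between libraries of a condition, and although both ATRA values were the higher, the nearest pair was 120 bp apart (exact two-sided permutation test, p = 0.333, the smallest that 2 against 2 libraries can give). Where the groups are fully apart, this p depends only on the order of the libraries and not on their spread. The labels do not say whether replicates came from separate cultures, so the spread between these libraries may be technical.

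**Figure D5:**
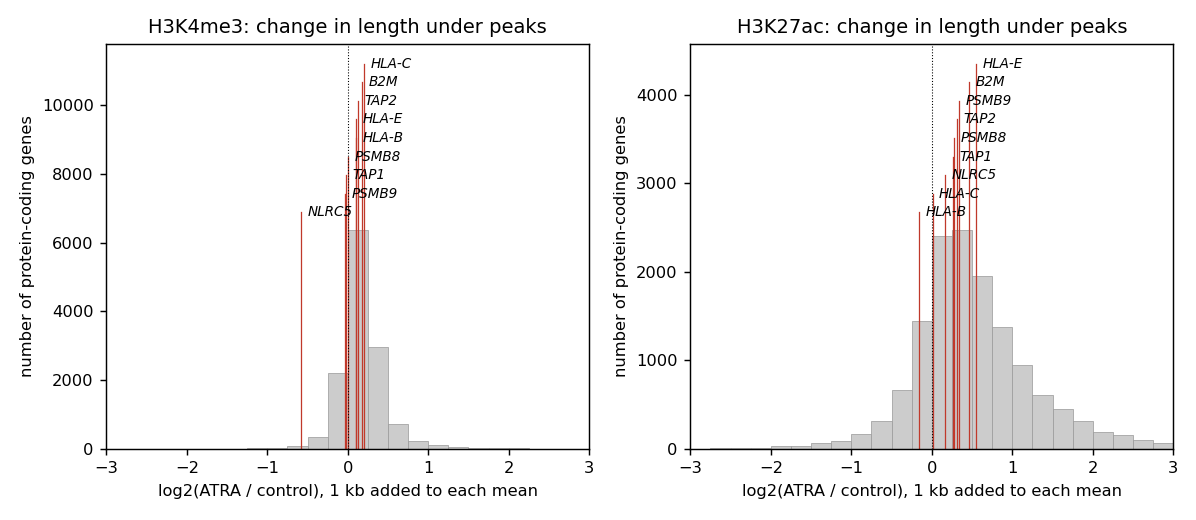
Number of protein-coding genes by the log2 change of length under H3K4me3 peaks (left) and H3K27ac peaks (right), ATRA over control, with the 9 members as red lines. NLRC5 lies at −0.58 in the lower tail of H3K4me3, and the H3K27ac changes of the members, from −0.16 to 0.55, lie below the median of all genes for 7 of 9.

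The other genes of the pathway were counted from a list of 21, of which 19 had peaks of both marks. The non-classical heavy chain genes HLA-F and HLA-G had 0 bp under peaks of either mark in all 8 libraries, and 14.5% and 13.5% of the stretches of 32 bases around their starts occurred elsewhere in the assembly, which is close to the shares of HLA-B, HLA-C and HLA-E. For H3K4me3, 8 of the 19 were higher in both ATRA libraries, 0 were lower and 11 overlapped, with a median log2 change of 0.14, beside 40.3% higher, 4.1% lower and a median of 0.15 over all genes with a peak. For H3K27ac, 12 of 19 were higher, 1 was lower and 6 overlapped, with a median of 0.57, beside 40.4% higher, 4.06% lower and a median of 0.42 over all genes. The difference between this list and the 9 members was not tested.

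Of the 12, those with the largest H3K27ac changes were ERAP2, IRF1, IRF2 and PDIA3. ERAP2, which trims peptides in the endoplasmic reticulum, had 3553 and 4973 bp with ATRA and 0 and 1383 bp in control (log2 change of 1.64). PDIA3, a chaperone of peptide loading, had 1750 and 4498 bp with ATRA and 624 and 1493 bp in control (log2 change of 1.00). The PDIA3 start lay under H3K27ac in 2 of 2 ATRA and 0 of 2 control libraries, a pattern of 6.97% of genes. The interferon regulatory factor gene IRF1, an activator of class I genes, had 42769 and 44404 bp with ATRA and 6430 and 20416 bp in control (log2 change of 1.63), and IRF2 had 6645 and 15794 bp with ATRA and 2924 and 6539 bp in control (log2 change of 1.09). The IRF1 start itself lay under H3K27ac in 1 ATRA library and 0 control libraries. Where in the annotated IRF1 region the peaks lay is not reported here. The gene lower in both ATRA libraries was CALR, which encodes the loading chaperone calreticulin, with 6626 and 8048 bp with ATRA and 9373 and 10658 bp in control (log2 change of −0.40).

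The standard proteasome subunits were read beside the immunoproteasome members. PSMB5, the counterpart of PSMB8, had 2159 and 2051 bp of H3K27ac with ATRA and 1636 and 1866 bp in control (log2 change of 0.17). PSMB6, the counterpart of PSMB9, had 0 and 969 bp of H3K27ac with ATRA and 0 bp in both control libraries. PSMB7, which is replaced by PSMB10 in the immunoproteasome, had 8116 and 10819 bp with ATRA and 6191 and 10423 bp in control (log2 change of 0.17), and PSMB10 had 4263 and 3716 bp with ATRA and 2963 and 2437 bp in control (log2 change of 0.43). H3K27ac length of PSMB5 and PSMB10 was higher in both ATRA libraries, and that of PSMB7 overlapped, as did that of PSMB8 and PSMB9. The PSMB7 start itself lay under H3K27ac in 2 of 2 ATRA and 0 of 2 control libraries. Of the 8734 genes with a start under H3K27ac in any library, 6.97% had this pattern.

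The genes with the most similar lengths to B2M over all 8 libraries were DCAF6, COX20 and FAXDC2, at Euclidean distances of 0.27, 0.30 and 0.30 on the log2 scale. For NLRC5 they were SEMA4D, ZC3H4 and the gene model ENSG00000285171, at 0.80, 0.89 and 0.92. Of these, ENSG00000285171, on chromosome X, also had less H3K4me3 length with ATRA, with 6178 and 7381 bp, than in control, with 10118 and 9132 bp.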

How the data were processed

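The broad peak lists of 8 HL-60 ChIP-seq libraries were used. Per the labels and methods of the study, the authors removed adapters (cutadapt is named in their processing notes), aligned reads to hg19 with Bowtie and called peaks with MACS2 for each library. Versions are not given in the sources used here. The deposited lists hold peak positions and a −log10 q, as well as a fold and a −log10 p column with impossible values that were not used. Between the replicates of a group, the deposited −log10 q of matched peaks (50% reciprocal overlap) had Spearman correlations across peaks of 0.07 to 0.20 over 6419 to 12038 pairs, and peak lengths of 0.89 to 0.93, so −log10 q served only as an alternative filter at 5 or above, of doubtful meaning.

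Gene models were those of GENCODE release 44 on GRCh37. For each protein-coding gene, the bp under peaks over the gene with 5 kb on each side, and whether a peak lay over the start of the MANE Select transcript (or, for 1220 genes without one, the canonical transcript), were computed with Python 3.11.15 and numpy 2.4.6. Changes are log2 ratios of the mean of 2 libraries with a pseudocount of 1000 bp. A gene was called higher or lower where both ATRA libraries lay outside the control range. The length over the union of the members was compared with an exact two-sided permutation test (scipy 1.17.1). Promoter sequence was read from GRCh37. Some lineage markers are not reported here, and the promoter of NLRC5 was not analysed here.

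Groups came from the sample titles and labels. The members and the gene lists were chosen with earlier results of these data known. All 9 members were named. Of the other pathway genes, those outside the control range for H3K27ac were named, up to 4 per direction by size of change, beside the standard proteasome counterparts of members. The 3 genes nearest to B2M and to NLRC5 by Euclidean distance of log2 length were named, and the stretches inside NLRC5 and downstream of B2M were chosen after their values were seen. Alternatives were another region, filter, scaling, measure and pseudocount, leaving out each library and the replicate block. The body of the MANE Select transcript and the outermost start of the gene record were added after the data were seen.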

Additional observations from a re-analysis of the deposited data

How the results depend on the processing

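With 2 libraries per condition, peaks without read counts and a length that cannot grow beyond a region, small changes at these genes could not be resolved. The log2 change over all members was −0.01 for H3K4me3 and 0.26 for H3K27ac. With peaks at −log10 q of 5 or above these became −0.10 and 1.61, and the cause was not tested. After division by the library's total length they became −0.24 and −0.66, a reversal for H3K27ac that follows from the larger H3K27ac totals of the ATRA libraries, and with the number of peaks 0.078 and 0.45. H3K4me3 gave −0.24 over B2M and NLRC5 alone and −0.080 without the HLA genes. The 3 members higher in H3K4me3 became 0 within 2 kb of the start, 0 after scaling, 1 by number of peaks, and the 3 lower became 0, 5 and 0. Within 2 kb of the start, H3K4me3 covered all 4001 bp at TAP1, TAP2, PSMB8 and PSMB9 in every library. None of these members could therefore be called in that window. After scaling, 16.0% of all genes were higher and 25.1% lower in H3K4me3, and 17.1% were higher and 25.9% lower in H3K27ac. Shares over all genes are not given for the counts by number of peaks, nor within 2 kb of the start for H3K4me3, so these counts cannot be set against them. For H3K27ac, the members higher (0) became 1 within 2 kb of the start and 1 by number of peaks, and the members lower (0) became 4 after scaling. The replicate numbers share only a number in the labels, with a correlation of the deviations of same-numbered libraries of 0.22 for H3K4me3 and 0.49 for H3K27ac across gene regions. With the replicate block, the log2 changes were −0.01 and 0.26, and the members higher were 5 for H3K4me3 and 5 for H3K27ac. Leaving out 1 library at a time gave log2 changes of −0.04 to 0.03 for H3K4me3 and 0.10 to 0.43 for H3K27ac, 3 to 5 members higher in H3K4me3 (5 without ATRA replicate 2 or control replicate 1), 2 to 6 higher in H3K27ac (6 without ATRA replicate 1 or control replicate 2) and 0 to 1 lower (1 without the same libraries). With a library left out, the rule is easier to meet for every gene. The shares over all genes are not given for these counts, so a rise in them is no result about the members. The members with H3K27ac over the start in the ATRA libraries alone became 0 to 1, with PSMB9 the 1 without control replicate 2. Among single members, 162 of 216 alternative values moved by less than the spread between replicates. The sign turned in 9 of 108 H3K4me3 values and 32 of 108 H3K27ac values, the latter including 8 members after scaling. Of the members whose groups did not overlap, H3K4me3 turned for HLA-C to −0.26 and PSMB9 to 0.26 by number of peaks, and for B2M to −0.031 and TAP2 to −0.10 after scaling.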
